A study of Mus musculus with 6 samples.

Results

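The 50 genes described here encode the machinery of mitosis in mouse: the kinases and cyclins that start it, the condensin complex that compacts chromosomes, the kinetochore and its checkpoint, the spindle motors, the enzymes that trigger anaphase and the proteins that split the cell. They were picked by symbol as a list of mitotic genes, and all 50 were found once among the 54752 genes listed for each library. The study sequenced RNA from 3T3-L1 cells, a clonal mouse embryo fibroblast line that can become fat cells in culture. It holds 3 preadipocyte and 3 adipocyte libraries, each numbered 1 to 3, and the labels give the strain as C57BL/6J, the tissue as embryo and no treatment for all 6. The medium description, also the same for all 6, contains DMI without spelling it out, so the agents each group received, the day of harvest and whether cells were confluent are unknown here. Nothing in the labels ties the replicates to cultures of their own, so p-values measure the spread between these libraries, which may be technical.

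A dividing cell makes most mitotic proteins anew in each cycle. Their transcripts build up late in the cycle. Control runs through the DREAM and MuvB complexes, B-Myb and FoxM1, which act at promoters that carry a cell cycle genes homology region (CHR). NF-Y acts at CCAAT boxes. Cells that leave the cycle shut these promoters. In 3T3-L1 cells, hormonal induction of confluent cultures is known to set off a short burst of division, the mitotic clonal expansion, before the cells leave the cycle and fill with fat. Messenger RNA of mitotic genes is therefore a common readout of how many cells in a culture divide.

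Levels are given in CPM, the counts of a gene scaled to a common library size with TMM factors, where 1 gene is compared between libraries. They are given in TPM, which also accounts for gene length, where genes are compared with each other. Each library held between 22496486 and 26314076 expected counts. The library labels were checked against marker genes. All 8 adipocyte markers were higher in adipocytes, where the fatty acid carrier gene Fabp4 went from 18.0 ± 0.439 to 6134 ± 187 CPM (SD, n = 3). All 8 markers of preadipocytes or fibroblasts were lower, with a summed level of 29487 to 32440 CPM in preadipocyte and 2262 to 2708 CPM in adipocyte libraries, and the collagen gene Col1a2 was the most abundant of them at 13201 ± 803 and 1045 ± 114 CPM (SD, n = 3). The 7 macrophage markers summed to 5.25 to 6.97 and 2.08 to 4.20 CPM, led by Cd14, with Adgre1 and Itgam at 0 in both groups. The 5 endothelial markers, led by Pecam1 in mean CPM and by Vwf in mean TPM, stayed at or below 1.42 CPM in sum in every library. So did the 5 epithelial markers, led by Krt18. Of 5 muscle markers, Myod1, Myog, Myf5 and Ckm were at 0 in all libraries and desmin (Des), the muscle intermediate filament, rose from 1.51 ± 0.290 to 66.0 ± 8.27 CPM (SD, n = 3). The part of these other cell types in the results was not tested.

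All 50 mitotic genes had enough counts to be tested, with at least 34 counts in each preadipocyte library and at least 2 in each adipocyte library. In adipocytes 44 of the 50 were lower, 3 were higher (Anln, Cdc25b and Ncapd2) and 3 were not past the threshold (Bub3, Ube2c and Cenpn), by the quasi-likelihood test of edgeR, adjusted after Benjamini and Hochberg over 14726 genes with a threshold of 0.05. The 47 called genes compare with 73.5% of all tested genes, made up of 37.9% called lower and 35.7% called higher. The median log2 fold change was -2.31 over the mitotic genes and -0.06 over all tested genes. Falls of at least 8-fold were found for 13 mitotic genes, where 6.27% of all tested genes fell that far, falls of at least 4-fold for 35, where the share of all genes was 11.2%, and falls of at least 2-fold for 41, where it was 21.8%. The 3 libraries of each group did not overlap, with adipocytes below, for 45 of the 50 genes (39.7% of all tested genes), and did not overlap with adipocytes above for 3 (36.8% of all tested genes). In bulk RNA, fewer dividing cells and less of these transcripts per cell cannot be told apart. The 44 lower genes were called lower under all 16 alternative settings as well, whereas Ncapd2, Cdc25b, Bub3, Ube2c and Cenpn changed call or sign under some, as given with each below.

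**Figure D1:**
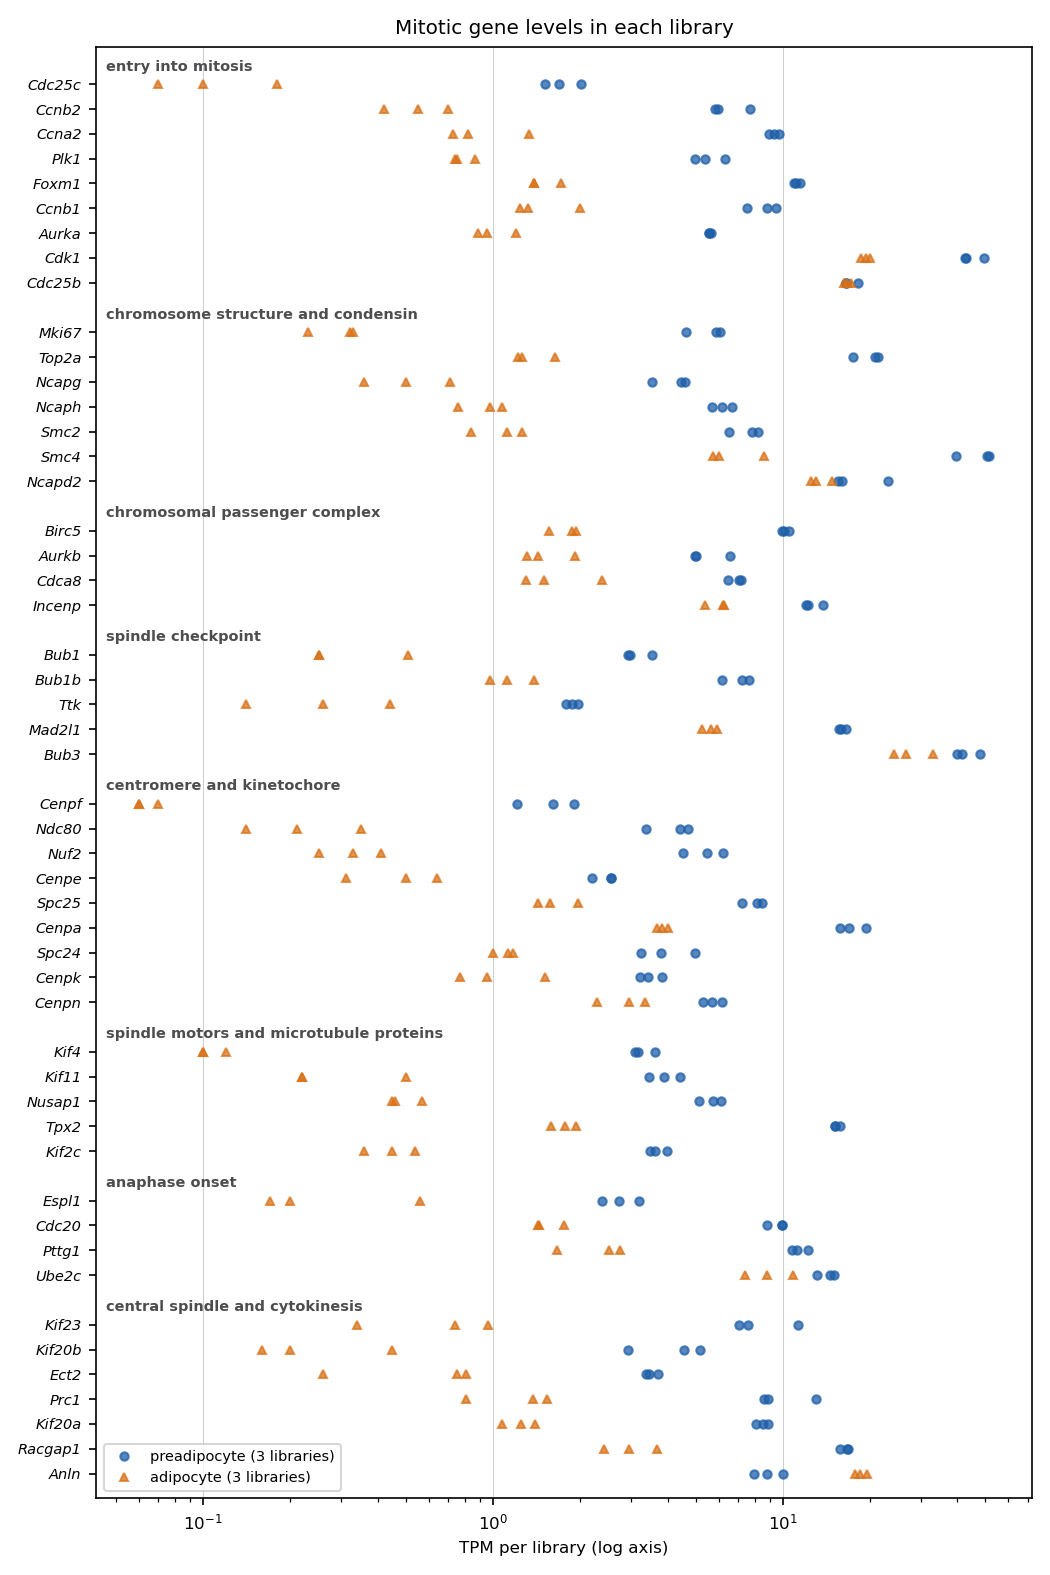
Level of each of the 50 mitotic genes in TPM (log axis) in the 3 preadipocyte libraries (circles) and the 3 adipocyte libraries (triangles), grouped by role. The median gene is at 6.53 to 7.55 TPM in preadipocyte libraries and 0.99 to 1.33 TPM in adipocyte libraries, while Bub3, Cdk1, Anln, Cdc25b and Ncapd2 are above 10 TPM in every adipocyte library.

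The direction of calls depended on the scaling for the genome but little for these genes. Higher genes made up 48.5% of all calls with TMM, 42.3% under upper-quartile scaling and 34.3% under total counts. With limma the share was 28.2% on log2(TPM + 1) and 28.1% on log2(TPM + 0.1). The median gene shifted relative to TMM by -0.13 (log2) under upper-quartile scaling, by -0.33 under total counts and by -0.48 and -0.51 with limma on the 2 TPM scales. The median over the mitotic genes was -2.44, -2.63, -1.88 and -2.58 in the same order.

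Summed over the 50 genes, the level was 490.8, 509.4 and 524.1 TPM in preadipocyte libraries 1 to 3 and 166.9, 162.3 and 171.3 TPM in adipocyte libraries 1 to 3. Anln, Bub3, Cdc25b, Cdk1, Ncapd2 and Ube2c, 6 genes chosen after their values were seen, made up 27.7% to 30.8% of that sum in preadipocytes and 61.0% to 65.0% in adipocytes. No gene was below 1 TPM in a preadipocyte library, and 25, 22 and 21 genes were below it in adipocyte libraries 1 to 3. The order of genes differed between the groups too. The condensin ATPase gene Smc4 was first in preadipocytes at 47.4 TPM and seventh in adipocytes at 6.79 TPM, and the topoisomerase gene Top2a went from rank 4 to rank 22.

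**Figure D2:**
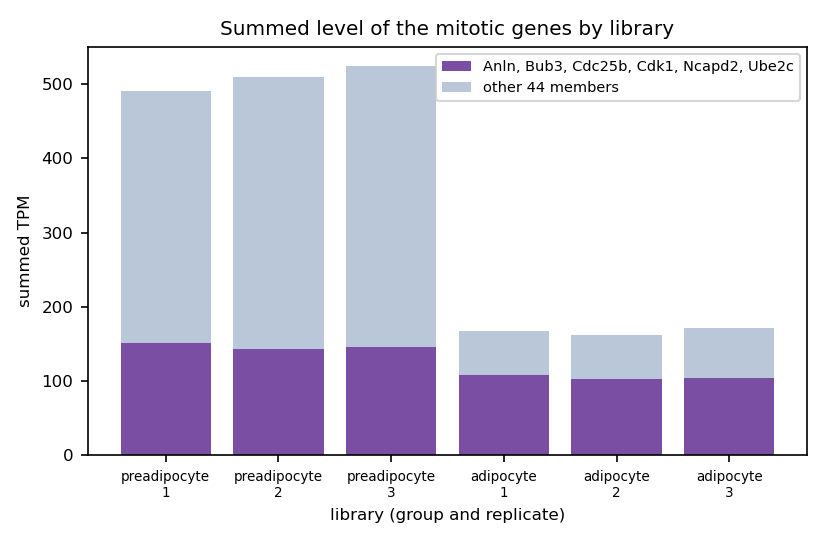
Summed TPM of the 50 mitotic genes in each library, split into Anln, Bub3, Cdc25b, Cdk1, Ncapd2 and Ube2c (dark) and the other 44 genes (light). The total is 490.8 to 524.1 TPM in preadipocyte and 162.3 to 171.3 TPM in adipocyte libraries, and the dark part is over 60% of the bar only in adipocyte libraries.

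Promoter windows of 300 bases, from 250 before to 50 after the start used for each window, were taken from RefSeq on GRCm38.p6. This start need not be the start of the gene positions given below. The Kif4 window, for example, lies wholly inside the gene position given for Kif4. The windows matched 41 of the 50 genes by symbol, 46 windows in all. Aurkb, Ccna2, Cdc25c, Foxm1, Incenp, Kif20a, Smc4, Spc24 and Tpx2 had no entry. Each window was searched on both strands for the CHR (TTTGAA), a variant of it (TTCGAA, which is its own reverse complement) and the CCAAT box (CCAAT). Neighbouring matches can share an end base, and CCAATTGG counts as a CCAAT box on each strand. The sequences of 6 windows are shown, chosen after values were seen. They set the genes with the largest falls (Cenpf and Kif4) and a mitotic cyclin that fell (Ccnb2) beside other genes. The others (Ube2c, Bub3 and Anln) were not called lower by the edgeR test. The sequences are written 5′ to 3′ on the gene's strand, with CHR and CCAAT matches of either orientation in capitals.
Cenpf, chr1:189688037-189688336, minus strand: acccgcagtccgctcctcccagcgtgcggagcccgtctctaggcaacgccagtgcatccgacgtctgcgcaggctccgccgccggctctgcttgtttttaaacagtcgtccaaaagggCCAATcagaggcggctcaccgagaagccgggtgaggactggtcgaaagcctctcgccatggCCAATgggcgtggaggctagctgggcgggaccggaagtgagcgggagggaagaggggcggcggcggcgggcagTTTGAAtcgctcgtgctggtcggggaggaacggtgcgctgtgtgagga
Kif4, chrX:100625815-100626114, plus strand: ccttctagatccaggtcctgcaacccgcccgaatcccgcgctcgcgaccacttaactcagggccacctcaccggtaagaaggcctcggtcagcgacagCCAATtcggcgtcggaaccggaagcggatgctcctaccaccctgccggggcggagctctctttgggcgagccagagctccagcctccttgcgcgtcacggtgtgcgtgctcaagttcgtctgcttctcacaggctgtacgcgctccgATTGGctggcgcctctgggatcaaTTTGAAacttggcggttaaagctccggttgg
Ccnb2, chr9:70421505-70421804, minus strand: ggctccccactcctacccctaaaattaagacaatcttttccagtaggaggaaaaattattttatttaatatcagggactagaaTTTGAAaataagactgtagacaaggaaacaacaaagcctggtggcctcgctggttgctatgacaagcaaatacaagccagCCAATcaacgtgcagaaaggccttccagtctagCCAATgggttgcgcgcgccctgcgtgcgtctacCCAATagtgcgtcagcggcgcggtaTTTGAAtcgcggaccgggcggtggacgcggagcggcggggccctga
Ube2c, chr2:164769679-164769978, plus strand: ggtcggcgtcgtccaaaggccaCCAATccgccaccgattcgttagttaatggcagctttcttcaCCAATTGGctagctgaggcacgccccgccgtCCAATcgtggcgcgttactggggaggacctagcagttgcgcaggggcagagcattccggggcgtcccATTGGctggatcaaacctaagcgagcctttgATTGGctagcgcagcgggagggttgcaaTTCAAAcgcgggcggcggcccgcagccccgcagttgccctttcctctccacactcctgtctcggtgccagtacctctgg
Bub3, chr7:131560120-131560419, plus strand: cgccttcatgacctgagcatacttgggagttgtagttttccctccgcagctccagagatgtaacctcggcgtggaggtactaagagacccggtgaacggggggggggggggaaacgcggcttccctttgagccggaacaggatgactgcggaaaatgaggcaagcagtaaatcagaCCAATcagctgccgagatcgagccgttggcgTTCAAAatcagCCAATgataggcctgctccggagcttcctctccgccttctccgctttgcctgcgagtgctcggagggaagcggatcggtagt
Anln, chr9:22389157-22389456, minus strand: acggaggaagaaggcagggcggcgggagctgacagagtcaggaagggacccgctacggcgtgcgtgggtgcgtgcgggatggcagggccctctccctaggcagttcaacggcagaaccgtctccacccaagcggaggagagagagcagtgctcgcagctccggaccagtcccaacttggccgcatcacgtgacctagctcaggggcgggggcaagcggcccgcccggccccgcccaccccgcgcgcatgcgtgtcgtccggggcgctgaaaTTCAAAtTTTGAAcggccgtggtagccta

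The Cenpf window held CCAAT boxes starting at -132 and -71 and a CHR at 2, counted from 0 at the start used for the window. In Ccnb2, CCAAT boxes started at -87, -54 and -21, with CHR matches at -167 and 4. Ube2c, whose level did not pass the test, held 6 CCAAT matches and a reversed CHR at -29. The Bub3 window shown held CCAAT boxes at -74 and -32 around a reversed CHR at -43. Bub3 has another window with a later start, where the CCAAT boxes lie at -198 and -156 and the reversed CHR at -167. Anln, which was higher in adipocytes, held a reversed CHR at 21 and a forward one at 28, and no CCAAT box.

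The CHR was in 33 of 46 windows of the mitotic genes, or 71.7%, against 12.4% of 13184 windows of tested genes and 17.9% of all 32851 windows. The variant was in 8.7% of the windows of mitotic genes, 2.01% of those of tested genes and 1.56% of all. A CCAAT box was in 78.3%, 38.3% and 37.4%. A CHR or its variant together with a CCAAT box was in 67.4%, 5.92% and 7.52%. Within 60 bases before to 40 after the start, a stretch chosen after the study's values were known, a CHR or its variant was in 63.0%, 3.66% and 5.44%. By gene, 32 of the 41 mitotic genes with a window held a CHR or its variant, and their median log2 fold change was -2.40. The other 9 (Birc5, Ccnb1, Cenpe, Cenpk, Mad2l1, Ncaph, Nuf2, Nusap1 and Pttg1) had a median of -2.16. All 6 genes not called lower by the edgeR test held a match, as did 26 of the 35 that were called lower. The motifs were thus present both in genes called lower and in genes not called lower by that test. Of these 6, Ncapd2, Bub3, Ube2c and Cenpn were called lower with limma on log2(TPM + 1). A match describes the letters of the window, and binding was not measured.

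**Figure D3:**
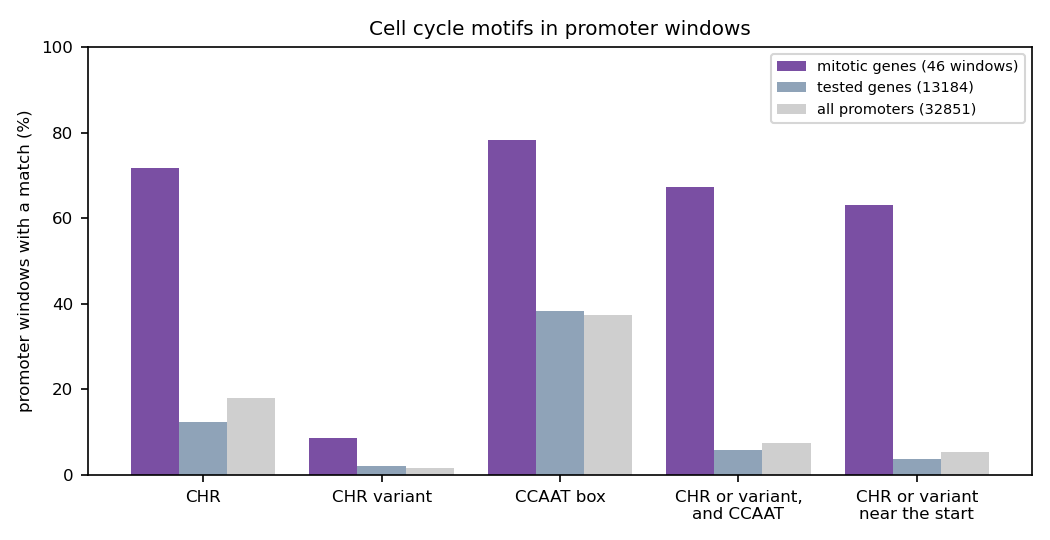
Share of promoter windows, in percent, with a match to each motif on either strand, for the mitotic genes (46 windows), all tested genes (13184) and all promoters (32851). The CHR is in 71.7% of the windows of mitotic genes and in 12.4% of those of tested genes, and the CCAAT box in 78.3% and 38.3%.

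Of the 9 genes that start mitosis, 8 fell. Cdk1 (ENSMUSG00000019942.13, chr10:69335146-69352938, GRCm38, as all gene positions here), the kinase that drives cells into mitosis, was the most abundant of them. It measured 21.4, 18.6 and 19.5 CPM in preadipocyte libraries 1 to 3 and 13.8, 13.6 and 10.9 CPM in adipocyte libraries 1 to 3. The groups did not overlap, and Cdk1 fell (log2 fold change -0.63, SE 0.117, edgeR adjusted p = 0.00107), the smallest of the 8 falls. Its cyclin partners fell further: Ccna2, by 2.87 (SE 0.172), Ccnb1, by 2.16 (SE 0.188), and Ccnb2, by 3.02 (SE 0.230), on the log2 scale. The ratio of Cdk1 to Ccnb1 in TPM was 4.50 to 5.67 in preadipocytes and 9.71 to 16.1 in adipocytes. The kinase genes Plk1 and Aurka, which build the spindle poles and mature the centrosomes, fell by 2.59 (SE 0.195) and 1.92 (SE 0.164). Foxm1, the transcription factor that switches on late cell cycle genes, fell from 22.4 ± 1.95 to 3.86 ± 0.0474 CPM (SD, n = 3).

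Of the Cdc25 phosphatases, which switch Cdk1 on, Cdc25c fell and Cdc25b rose on the TMM scale. Their relative Cdc25a, from the list of other regulators, did not pass the test (log2 fold change 0.12, edgeR adjusted p = 0.241). Cdc25c (ENSMUSG00000044201.9) measured 1.53, 1.90 and 1.60 CPM in preadipocytes and 0.259, 0.0934 and 0.130 CPM in adipocytes. Its adipocyte values rest on 6, 2 and 3 counts, and it fell (log2 fold change -3.32, SE 0.340, edgeR adjusted p = 2.28e-05). Cdc25b (ENSMUSG00000027330.16, chr2:131186949-131198497) measured 23.2, 21.2 and 23.4 CPM in preadipocytes and 34.7, 33.4 and 31.4 CPM in adipocytes, so every adipocyte library was above every preadipocyte library. It rose (log2 fold change 0.55, SE 0.0827, edgeR adjusted p = 0.000276). Under limma on log2(TPM + 1) and on log2(TPM + 0.1) the difference was -0.03 and not past the threshold (adjusted p = 0.759 and 0.757). On the TPM scale Cdc25b stood at 17.1 TPM in preadipocytes and 16.7 TPM in adipocytes, and its ratio to Cdc25c went from 9.06 to 10.9 up to 95.8 to 239.

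Chromosome structure genes fell in 6 of 7 cases. Mki67 (ENSMUSG00000031004.8, chr7:135689784-135716361), which coats mitotic chromosomes and is the standard marker of dividing cells, measured 26.1, 30.3 and 31.1 CPM in preadipocytes and 2.51, 1.78 and 2.51 CPM in adipocytes. The groups were far apart, and the fall was 12.8-fold (log2 fold change -3.68, SE 0.150, edgeR adjusted p = 5.96e-08). Top2a, which untangles sister chromatids, fell 8.84-fold (log2 fold change -3.14, SE 0.145) from 35.4 ± 2.61 CPM (SD, n = 3).

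Condensin I is a ring of Smc2 and Smc4 closed by Ncaph, with Ncapg and Ncapd2 as accessory subunits. Smc4 (ENSMUSG00000034349.14, chr3:69004738-69034623) measured 82.4, 96.4 and 93.0 CPM in preadipocytes and 16.1, 17.6 and 24.4 CPM in adipocytes, and fell (log2 fold change -2.23, SE 0.154, edgeR adjusted p = 1.66e-06). Smc2, Ncaph and Ncapg fell by 2.28 (SE 0.144), 2.33 (SE 0.152) and 2.93 (SE 0.175). The accessory subunit gene Ncapd2 (ENSMUSG00000038252.13, chr6:125168007-125191701) did not fall with them on this scale. It measured 32.3, 28.3 and 28.8 CPM in preadipocytes and 37.0, 32.8 and 34.2 CPM in adipocytes, with no overlap by a small margin.

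The call of Ncapd2 was at the threshold (log2 fold change 0.22, SE 0.0884, edgeR adjusted p = 0.0496) and its direction depended on the setting. It was lost with upper-quartile factors (0.09) and without preadipocyte replicate 2 (0.18), preadipocyte replicate 3 (0.19) or adipocyte replicate 1 (0.18). The sign turned with total counts (-0.11, adjusted p = 0.257), and with limma on log2(TPM + 1) and log2(TPM + 0.1) Ncapd2 was called lower (-0.39 and -0.41, adjusted p = 0.0463 and 0.046). Within libraries, which no scaling between libraries affects, the ratio of Ncapd2 to Smc2 in TPM was 3.53, 2.04 and 1.89 in preadipocytes and 15.5, 11.2 and 11.7 in adipocytes.

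The chromosomal passenger complex, which corrects faulty attachments of microtubules and then guides cytokinesis, fell in all 4 members. Birc5 (survivin, ENSMUSG00000017716.15, chr11:117849251-117855743) measured 5.36, 4.58 and 5.34 CPM in preadipocytes and 1.25, 1.31 and 1.08 CPM in adipocytes, and fell (log2 fold change -2.07, SE 0.165, edgeR adjusted p = 4.26e-06). The kinase Aurkb and the targeting subunit Cdca8 (borealin) fell by 1.47 (SE 0.171) and 1.43 (SE 0.211). Incenp (ENSMUSG00000024660.8, chr19:9872296-9899551), the scaffold that holds the complex together, was the most abundant member and fell least. It measured 23.8, 19.5 and 19.8 CPM in preadipocytes and 15.2, 12.8 and 14.6 CPM in adipocytes, without overlap (log2 fold change -0.56, SE 0.115, edgeR adjusted p = 0.00187).

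Spindle checkpoint genes, whose products hold back anaphase until every chromosome is attached, fell in 4 of 5 cases. Bub1 (ENSMUSG00000027379.13, chr2:127801122-127831865), a kinase that recruits the other checkpoint proteins, measured 4.15, 5.61 and 4.57 CPM in preadipocytes and 0.346, 0.327 and 0.519 CPM in adipocytes, an 11.8-fold fall (log2 fold change -3.57, SE 0.242, edgeR adjusted p = 1.44e-06). Bub1b (BubR1) and the kinase Ttk (Mps1) fell by 3.12 (SE 0.133) and 2.29 (SE 0.322). Mad2l1, the inhibitor of Cdc20, fell by 0.99 (SE 0.0974), from 16.2 ± 0.801 to 8.16 ± 0.258 CPM (SD, n = 3).

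Bub3 (ENSMUSG00000066979.6, chr7:131560222-131571895), the adaptor that docks Bub1 and BubR1 at kinetochores, was the exception. It measured 55.5, 46.9 and 45.1 CPM in preadipocytes and 54.8, 39.5 and 41.6 CPM in adipocytes, so the groups overlapped. The log2 fold change was -0.12 (95% interval -0.43 to 0.20, edgeR adjusted p = 0.464). Scaling by total counts (-0.45), limma on both TPM scales (-0.62 and -0.63) and leaving out adipocyte replicate 1 (-0.26) each gave a call of lower for Bub3, whereas it stood at 0.02 and 0.0029 without adipocyte replicate 2 or 3. The ratio of Bub3 to Bub1 in TPM was 11.7 to 16.1 in preadipocytes and 47.5 to 132 in adipocytes.

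Of the 9 centromere and kinetochore genes, 8 fell, over a wide range. Cenpf (ENSMUSG00000026605.14, chr1:189640606-189688086), a large coiled-coil protein of the outer kinetochore, measured 7.36, 9.32 and 11.1 CPM in preadipocytes and 0.519, 0.467 and 0.606 CPM in adipocytes. Its fall of 17.3-fold (log2 fold change -4.11, SE 0.230, edgeR adjusted p = 4.05e-07) was the largest among the 50 genes, just ahead of Kif4. The kinesin Cenpe, which carries chromosomes along microtubules, fell by 2.68 (SE 0.146).

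The Ndc80 complex is the microtubule grip of the kinetochore, made of Ndc80 and Nuf2 at the outer end and Spc24 and Spc25 at the inner end. Ndc80 fell by 3.85 (SE 0.280) and Nuf2 by 3.51 (SE 0.215) on the log2 scale, while Spc25 fell by 2.11 (SE 0.217) and Spc24 by 1.20 (SE 0.182). The 95% intervals of the outer genes (-4.49 to -3.21 and -4.00 to -3.02) did not reach those of the inner genes (-2.61 to -1.62 and -1.62 to -0.79). The ratio of Spc24 to Ndc80 in TPM was 0.862 to 1.05 in preadipocytes and 3.23 to 7.14 in adipocytes, and the ratio of Nuf2 to Ndc80 overlapped between the groups, at 1.16 to 1.41 and 0.943 to 1.95. Ndc80 had 4, 7 and 11 counts in adipocyte libraries 1 to 3, which limits the precision of these ratios. Of the 31-base stretches of Ndc80 transcripts, 7.86% also occur in other genes on the same strand and 4.39% on the opposite strand, and for Spc24 the shares are 6.77% and 6.21%.

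The histone variant Cenpa (ENSMUSG00000029177.9, chr5:30666777-30674830), which marks the centromere, was the most abundant of the kinetochore genes per length. It measured 9.08, 9.28 and 10.7 CPM in preadipocytes and 2.98, 2.94 and 3.16 CPM in adipocytes and fell (log2 fold change -1.67, SE 0.129, edgeR adjusted p = 3.32e-06). Cenpk and Cenpn belong to the network that sits on the centromere throughout the cycle. Cenpk fell by 1.09 (SE 0.268). Cenpn (ENSMUSG00000031756.5, chr8:116921730-116941507), which binds the Cenpa nucleosome, measured 5.44, 4.31 and 4.46 CPM in preadipocytes and 3.03, 3.74 and 4.07 CPM in adipocytes. Its groups did not overlap, but it did not pass the test (log2 fold change -0.39, SE 0.167, edgeR adjusted p = 0.061). With the replicate number as a block it passed (-0.39, adjusted p = 0.0488), as it did with upper-quartile factors (-0.52), total counts (-0.72) and limma on the 2 TPM scales (-0.81 and -0.99).

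All 5 genes of spindle motors and microtubule proteins fell. Kif4 (ENSMUSG00000034311.3, chrX:100625737-100727214), a motor that works on chromosome arms and the central spindle, measured 7.08, 7.23 and 6.53 CPM in preadipocytes and 0.389, 0.374 and 0.433 CPM in adipocytes, a 17.2-fold fall (log2 fold change -4.10, SE 0.175, edgeR adjusted p = 7.69e-08). Its libraries lay close together within each group, but its adipocyte values rest on 9, 8 and 10 counts. Tpx2 (ENSMUSG00000027469.16, chr2:152847964-152895321), which activates Aurka on the spindle, was the most abundant of them. It measured 29.5, 29.3 and 28.6 CPM in preadipocytes and 4.41, 3.74 and 4.72 CPM in adipocytes and fell (log2 fold change -2.76, SE 0.110, edgeR adjusted p = 4.97e-08). Kif11, the motor that pushes spindle poles apart, and the microtubule bundler Nusap1 fell by 3.12 (SE 0.266) and 2.88 (SE 0.159). Kif2c (ENSMUSG00000028678.13, chr4:117159639-117182639), which takes microtubules apart at centromeres, had the smallest fall of the 5. It measured 5.32, 5.17 and 5.48 CPM in preadipocytes and 0.908, 0.934 and 0.735 CPM in adipocytes (log2 fold change -2.63, SE 0.166, edgeR adjusted p = 9.03e-07).

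Of the 4 genes of anaphase onset, 3 fell. Espl1 (separase, ENSMUSG00000058290.4, chr15:102296266-102324357), the protease that cuts the rings holding sister chromatids, measured 6.34, 6.16 and 7.66 CPM in preadipocytes and 0.994, 1.03 and 0.865 CPM in adipocytes and fell (log2 fold change -2.80, SE 0.173, edgeR adjusted p = 7.8e-07). Its inhibitor Pttg1 (securin) fell by 2.01 (SE 0.204), and Cdc20, which activates the anaphase-promoting complex, by 2.10 (SE 0.157). Ube2c (ENSMUSG00000001403.13, chr2:164769898-164778822), the enzyme that supplies ubiquitin to that complex, measured 5.99, 6.24 and 6.43 CPM in preadipocytes and 4.97, 6.77 and 5.41 CPM in adipocytes. Its groups overlapped and the log2 fold change was -0.12 (95% interval -0.45 to 0.21, edgeR adjusted p = 0.464). Of the 31-base stretches of Ube2c transcripts, 21.1% occur on the opposite strand of other genes and 7.28% on the same strand. The largest of these partners is Tnnc2 on the opposite strand, with 17.7% of the stretches and 26 counts over all libraries. Scaling by total counts (-0.45) and limma on both TPM scales (-0.62 and -0.67) gave a call of lower for Ube2c.

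Of the 7 genes of the central spindle and cytokinesis, 6 fell. Kif23 (ENSMUSG00000032254.10, chr9:61915905-61946774), the motor of the centralspindlin complex, measured 5.99, 6.87 and 6.61 CPM in preadipocytes and 0.562, 0.467 and 0.260 CPM in adipocytes and fell 15.0-fold (log2 fold change -3.90, SE 0.232, edgeR adjusted p = 5.96e-07). Its partner Racgap1 fell by 2.01 (SE 0.0978), and Ect2, which the complex recruits to activate RhoA at the cleavage site, by 2.43 (SE 0.333). The motors Kif20a and Kif20b fell by 2.26 (SE 0.126) and 3.84 (SE 0.186), and Prc1, which bundles the central spindle, by 2.36 (SE 0.151). The Kif20a value is uncertain, because 26.7% of the 31-base stretches of its transcripts occur on the opposite strand of Cdc23.

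Anln (anillin, ENSMUSG00000036777.8, chr9:22332012-22389188), which ties the contractile ring to the membrane by binding actin, myosin and septins, went the other way. It measured 16.4, 18.7 and 17.9 CPM in preadipocytes and 43.4, 46.2 and 54.9 CPM in adipocytes. Every adipocyte library was over 2 times the highest preadipocyte library, and Anln rose (log2 fold change 1.45, SE 0.108, edgeR adjusted p = 2.85e-06), also under all 16 alternative settings. In TPM it moved from rank 19 of the 50 genes in preadipocytes (8.93 TPM) to rank 3 in adipocytes (18.6 TPM). The ratio of Anln to Ect2 in TPM was 2.35, 2.70 and 2.57 in preadipocytes and 71.0, 21.9 and 26.1 in adipocytes. Ect2 had 14, 24 and 46 counts in adipocyte libraries 1 to 3, which limits the precision of this ratio.

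**Figure D4:**
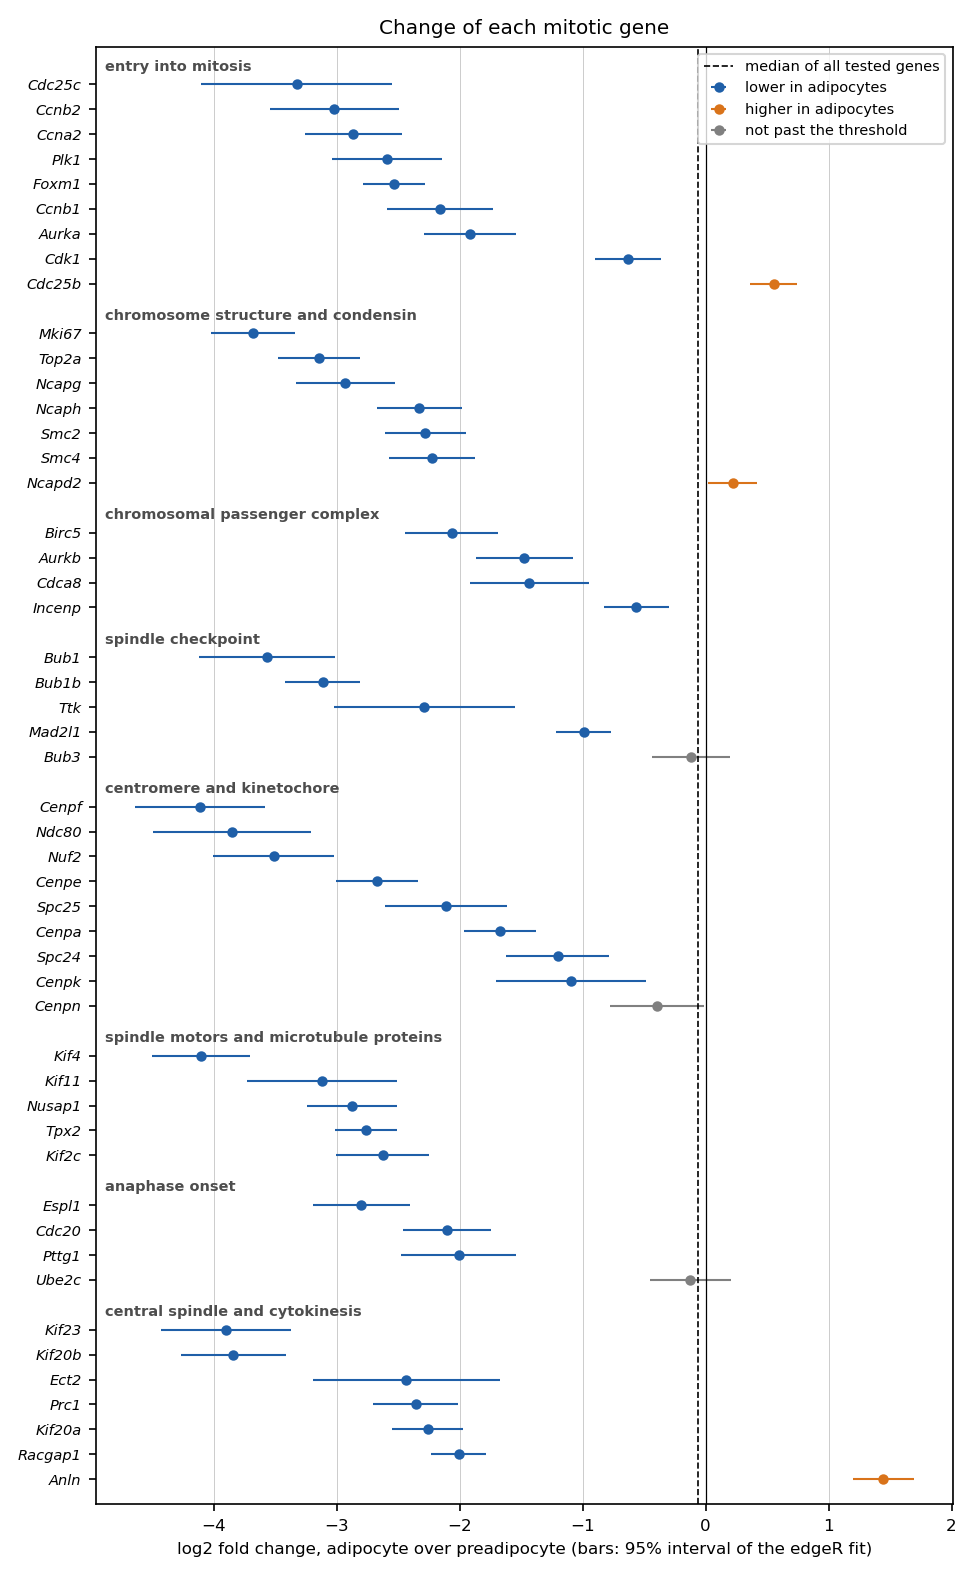
Log2 fold change of each of the 50 mitotic genes, adipocyte over preadipocyte, with its 95% interval from the edgeR fit with TMM factors, grouped by role and coloured by call. The falls run from -0.56 for Incenp to -4.11 for Cenpf, and Anln has the largest rise at 1.45. Cdc25b at 0.55 and Ncapd2 at 0.22 rose less. With limma on TPM values Cdc25b lost its call and Ncapd2 turned to a call of lower.

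Related genes were taken from lists that do not overlap the 50. Their counts stand beside the 37.9% of all tested genes called lower and the 35.7% called higher. Of 34 further kinetochore and centromere genes, 28 fell and 3 rose, with a median log2 fold change of -1.46. Knl1, the platform for checkpoint proteins, fell from 5.29 ± 1.09 to 0.400 ± 0.131 CPM and the centromere network gene Cenph from 3.65 ± 0.210 to 0.358 ± 0.104 CPM (SD, n = 3). The histone-fold protein gene Cenpx and the Mis12 complex gene Pmf1 rose by 1.19 (SE 0.221) and 0.97 (SE 0.135). The list of 25 further spindle and kinesin genes is not limited to motors of mitosis. Of these 25 genes 18 fell, the highest value was a log2 fold change of 0.0041 (Kif3a), and the median was -1.27. The falls were led by Ckap2, at -3.79 (SE 0.141), and Aspm, at -3.60 (SE 0.249). The 7 that did not pass were Kif2a, Kif3a, Kif5b, Mapre1, Clasp1, Clasp2 and Haus4, named after their values were seen.

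Of 20 further regulators of mitosis, 15 fell and 3 rose, with a median log2 fold change of -0.86. The kinase gene Melk fell from 4.11 ± 0.140 to 0.353 ± 0.107 CPM and the kinase gene Pbk from 3.10 ± 0.722 to 0.462 ± 0.153 CPM (SD, n = 3). Pkmyt1, a kinase that keeps Cdk1 inactive, rose from 4.77 ± 1.37 to 28.2 ± 3.88 CPM (SD, n = 3), a log2 fold change of 2.56 (SE 0.195, edgeR adjusted p = 3.13e-06). Aurkaip1, named for binding Aurka and also known as a mitochondrial ribosome protein, rose by 1.48 (SE 0.152).

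The anaphase-promoting complex and the cohesin and condensin II lists had medians closer to that of all tested genes (-0.06) than the lists above. Of 17 genes of the anaphase-promoting complex and its partners 8 fell and 4 rose, with a median log2 fold change of -0.25. Its inhibitor Fbxo5 (Emi1) fell by 2.31 (SE 0.180) and the subunit Anapc5 by 0.80 (SE 0.0903), while Fzr1 (Cdh1), which activates the complex after mitosis and in resting cells, rose by 0.70 (SE 0.131) and Anapc13 by 0.57 (SE 0.116). Of 15 genes of cohesin and condensin II 8 fell and 2 rose, with a median of -0.38. The acetyltransferase gene Esco2 and the cohesin regulator Pds5b fell by 2.32 (SE 0.260) and 0.92 (SE 0.137), while the cohesin release factor Wapl rose by 0.92 (SE 0.151) and the cohesin subunit Rad21 by 0.29 (SE 0.0880). In each of these lists 1 gene rose under total counts and under limma on TPM. Without adipocyte replicate 2 or 3, 5 genes of the anaphase-promoting complex fell. Of the cohesin and condensin II genes, 1 rose without preadipocyte replicate 1 and 4 rose with the replicate number as a block.

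Of the 15 genes on the list of DREAM and MuvB regulators, which also holds Rb1 and NF-Y genes, 6 were lower and 5 higher. The median log2 fold change was -0.01, and these counts are near the shares of all tested genes (37.9% and 35.7%). Mybl2 (B-Myb), which joins MuvB to activate mitotic genes, fell from 3.27 ± 0.474 to 1.62 ± 0.282 CPM, and the NF-Y subunit gene Nfya from 56.5 ± 1.93 to 36.9 ± 1.23 CPM (SD, n = 3). The retinoblastoma gene Rb1 rose from 12.0 ± 0.931 to 65.8 ± 12.2 CPM and the MuvB subunit gene Lin52 from 12.1 ± 0.469 to 26.6 ± 0.752 CPM (SD, n = 3). With limma on TPM 10 of the 15 were lower and 3 higher, and without adipocyte replicate 2 3 were lower.

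Earlier steps of the cycle were set beside mitosis. DNA replication genes fell in 21 of 27 cases and rose in 3, with a median log2 fold change of -1.47. The helicase subunit genes Mcm5 and Mcm6 fell by 3.15 (SE 0.127) and 3.10 (SE 0.0855), while Gins1 and Cdc45, which complete the same helicase, rose by 1.27 (SE 0.164) and 0.75 (SE 0.144). With limma on TPM 1 of the 27 rose. G1 cyclins and CDK inhibitors had 5 lower and 6 higher of 14 tested and a median of 0.17. These counts are near the shares of all tested genes (37.9% lower and 35.7% higher). The cyclin gene Ccnd1 fell from 251.8 ± 6.76 to 12.3 ± 1.70 CPM, whereas its relative Ccnd2 rose from 345.6 ± 34.8 to 1563 ± 135 CPM (SD, n = 3). The inhibitor gene Cdkn2c (p18) rose by 2.83 (SE 0.0810) and the inhibitor gene Cdkn2b (p15) fell by 1.90 (SE 0.0765).

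**Figure D5:**
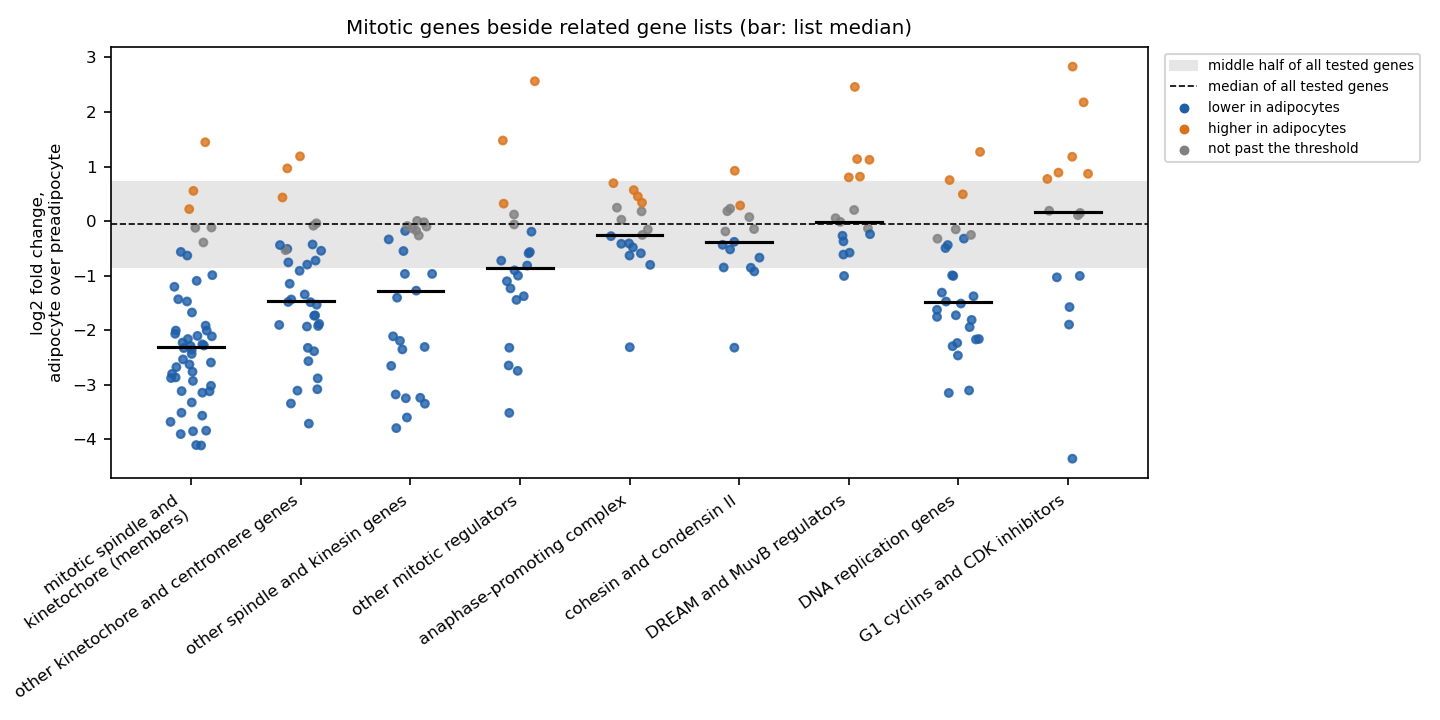
Log2 fold change, adipocyte over preadipocyte, of each tested gene in the 50 mitotic genes and in 8 related lists, with the list median as a bar and the median and middle range (lower to upper quartile) of all tested genes as a dashed line and a grey band. The list median is -2.31 for the 50 genes, -1.46 for other kinetochore genes, -1.47 for DNA replication and near 0 for the anaphase-promoting complex, cohesin, DREAM and MuvB, and G1 lists; values use TMM factors.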

How the data were processed

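RNA of 3 preadipocyte and 3 adipocyte libraries of 3T3-L1 cells was analysed from the authors' 6 gene tables. Per the file headers, each gives an expected count and a TPM for every gene. The tools named in the submitters' processing notes are Bowtie, Bowtie2, RSEM and DESeq2, and the builds are mm10 and GRCm38; versions, roles, filters and strandedness: not given in the sources used here. The deposited expected counts are unscaled estimates in which reads matching several genes are divided. The deposited TPM values account for gene length and sum to the same total in each library.

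Identifiers were matched without version to GENCODE M21 (54723 of 54752), and all 50 members and 256 list genes were found. Expected counts were rounded, filtered with filterByExpr and tested with the quasi-likelihood F-test of edgeR 4.0.16 (R 4.3.3) with TMM factors and a model of group alone, with Benjamini-Hochberg adjustment and a threshold of 0.05. The test was checked on simulated data. Preadipocyte libraries had TMM factors of 1.11 to 1.13 and adipocyte libraries 0.88 to 0.90. Alternatives used other factors and filters, DESeq2 1.42.0, limma 3.58.1 with voom or on log2 of TPM plus a pseudocount of 1 or 0.1, a replicate block, and each library left out. A fold change on a log2(TPM + pseudocount) scale understates the change of low genes. No pair of libraries agreed within counting noise (for the closest, chi-square divided by its degrees of freedom was 2.96 over 14309 genes).

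Centred within groups, log2(CPM + 1) values correlated at 0.66, 0.30 and 0.27 between libraries numbered 1, 2 and 3 (other pairs -0.57 to 0.45). All exceeded the limit of 0.1 set for pairing, although those of numbers 2 and 3 lie within the range of other pairs and no label says what a number marks. The main test has no block, and the value with the number as a block is given where it changes a call. The members, lists and tests were chosen with earlier results of these data known. Named in full are, per role, the most abundant member and those with the largest and smallest fall or a rise; per list, up to 2 called genes in each direction with at least 1 CPM; per marker list, the most abundant gene. Other names were chosen after values were seen. Sequence sharing was counted as 31-base stretches of GENCODE M21 transcripts found in transcripts of other genes, on either strand.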

Additional observations from a re-analysis of the deposited data

How the results depend on the processing

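Over 16 alternative settings, 777 of 800 fold changes of the 50 mitotic genes kept their direction and their side of the threshold, and 45 genes did so in every setting. The number of mitotic genes called lower was 44 to 48 and the number called higher was 1 with limma on log2(TPM + 1) and on log2(TPM + 0.1), where all genes called higher were 3266 and 3248 in place of 5252. With the replicate block 45 mitotic genes were lower, Cenpn being added, and the block changed no other call among the 50. For Bub3, leaving out adipocyte replicates moved the log2 fold change from -0.26 (a call of lower) to 0.017, and the sign turned without replicate 2 (0.017) or 3 (0.0029). It also turned for Cdc25b with limma on log2(TPM + 1) (-0.029) and log2(TPM + 0.1) (-0.031), and for Ncapd2 with total counts (-0.11) and the same TPM scales (-0.39 and -0.41). The cause was not tested. Among the related lists, counts moved by over 1.5 times in 19 cases. Anaphase-promoting complex genes that fell were 5 in place of 8 without adipocyte replicate 2 or 3. Cohesin and condensin II genes that rose numbered 4 under the replicate block in place of 2, and 1 with upper-quartile factors or without preadipocyte replicate 1. DREAM and MuvB genes that fell were 3 in place of 6 with no low-count filter or without adipocyte replicate 2. Cdc25c, with 2 to 6 counts in adipocyte libraries, had the largest SE of the 50 genes (0.340). Other large falls also rest on few adipocyte counts: 8 to 10 for Kif4, 10 to 14 for Cenpf, 6 to 13 for Kif23 and 7 to 12 for Bub1.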

Other observations

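Across the 50 mitotic genes, the mean TPM in preadipocytes and the log2 fold change had a Spearman correlation of 0.53, so genes with lower preadipocyte levels tended to fall further. This is a description across genes of the same 6 libraries, and both measures share the preadipocyte values. Apart from Cdc23 beside Kif20a, the largest stretches shared with the opposite strand of an expressed neighbour were those of Kif4 with Pdzd11 (14.6%), Ncapg with Lcorl (12.4%), Ccna2 with Exosc9 (11.8%) and Prc1 with Rccd1 (9.68%). On the same strand, Plk1 shared 14.8% of its 31-base stretches with Plk-ps1, Ccnb1 shared 22.9% with Ccnb1-ps and Cdc20 shared 23.4% with Gm7856. The last 2 partners had 0 counts, and Plk-ps1 had 324.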
